A study of Mus musculus with 2 samples.

Results

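Mouse basophils fill their secretory granules with a small set of proteases. Mcpt8, Prss34, Prss28 and Cpa3 were examined here as granule protease genes of this lineage, taken by symbol from the gene lists of both deposited matrices, and all 4 of 4 were found among 31053 genes. Bone marrow cells of FVB mice, as the labels give the strain, had been sorted by flow cytometry into E-cadherin+ cells with cKIT (E-cadherin+cKIT+) and without it (E-cadherin+cKIT-), and each sort was sequenced as 1 droplet single-cell library. The cells came from 3 mice, called wild-type in the study's main text and VaviCre; mTmG in a figure legend, and no treatment is named. VaviCre drives the Cre recombinase in blood-forming cells and mTmG is a fluorescent reporter of Cre, so on the legend's wording both sorts carried both transgenes. The age of the mice, and how the mice were divided between the libraries, are not given in the sources used here. cKIT is the receptor for stem cell factor and is carried by progenitors and mast cells, and E-cadherin is the adhesion protein encoded by Cdh1.

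Mcpt8 encodes mouse mast cell protease 8, a serine protease which despite its name is found mainly in basophils and is widely used to mark them in mice. Prss34 encodes mouse mast cell protease 11, a serine protease of the tryptase type that basophils release. Prss28 is a neighbouring tryptase-type gene, best known as implantation serine proteinase 1. Cpa3 encodes mast cell carboxypeptidase A, a zinc enzyme that trims amino acids from the C-terminus of peptides and is shared by basophils, mast cells and their progenitors. Many granule serine proteases, those of the chymase type among them, are made as inactive precursors. These are trimmed by the dipeptidyl peptidase encoded by Ctsc, and the proteases are stored bound to the proteoglycan serglycin (Srgn).

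The 4 genes lie at 3 loci (GRCm38, GENCODE). Mcpt8 (chr14:56082166-56085273, minus strand) sits in the chymase locus, where the nearest protein-coding neighbour on its higher-coordinate side is Ctsg, the gene of the neutrophil-type protease cathepsin G, 14608 bases away. Prss34 (chr17:25298394-25300165, plus strand) and Prss28 (chr17:25308646-25311876, plus strand) are adjacent in the tryptase locus, with 8481 bases between them. Cpa3 (chr3:20215620-20242181, minus strand) is followed by Cpb1, another carboxypeptidase gene, 6083 bases away. The longest transcripts of Prss34 and Prss28 were 60.7% identical over their aligned bases, and no window of 56 bases, the length of the cDNA read, in a transcript of any of the 4 genes was found in a transcript of another gene. Reads of full length without errors could therefore be assigned to 1 of them.

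The start regions are printed because the members differ widely in level in the same cells, Prss34 and Prss28 from neighbouring starts. Each is the RefSeq promoter window (GRCm38.p6) of 250 bases before and 50 bases after the RefSeq start, read 5′ to 3′ on the gene's strand. Matches to AGATAA or TGATAA (both strands, the letters of a GATA site) and to TATAAA (gene's strand only) are in capitals. For Mcpt8 the RefSeq start lies inside the GENCODE gene, whose own start on the minus strand is at 56085273.
Mcpt8, chr14:56085148-56085447, minus strand: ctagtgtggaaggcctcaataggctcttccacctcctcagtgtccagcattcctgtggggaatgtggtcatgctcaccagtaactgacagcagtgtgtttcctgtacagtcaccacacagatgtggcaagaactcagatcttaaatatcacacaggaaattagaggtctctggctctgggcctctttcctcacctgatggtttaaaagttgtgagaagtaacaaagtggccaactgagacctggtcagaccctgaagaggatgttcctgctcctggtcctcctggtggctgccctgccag
Prss34, chr17:25298144-25298443, plus strand: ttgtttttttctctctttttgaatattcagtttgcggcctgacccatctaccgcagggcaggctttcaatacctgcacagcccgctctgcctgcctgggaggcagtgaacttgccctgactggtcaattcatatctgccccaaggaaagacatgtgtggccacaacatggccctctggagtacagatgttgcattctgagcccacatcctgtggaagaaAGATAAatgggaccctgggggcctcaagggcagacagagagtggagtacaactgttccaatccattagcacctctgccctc
Prss28, chr17:25308396-25308695, plus strand: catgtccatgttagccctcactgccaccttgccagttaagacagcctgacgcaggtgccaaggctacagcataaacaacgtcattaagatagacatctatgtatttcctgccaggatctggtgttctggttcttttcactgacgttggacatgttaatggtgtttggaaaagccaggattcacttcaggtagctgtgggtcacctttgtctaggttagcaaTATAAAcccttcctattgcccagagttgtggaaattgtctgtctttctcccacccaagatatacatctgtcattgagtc
Cpa3, chr3:20242132-20242431, minus strand: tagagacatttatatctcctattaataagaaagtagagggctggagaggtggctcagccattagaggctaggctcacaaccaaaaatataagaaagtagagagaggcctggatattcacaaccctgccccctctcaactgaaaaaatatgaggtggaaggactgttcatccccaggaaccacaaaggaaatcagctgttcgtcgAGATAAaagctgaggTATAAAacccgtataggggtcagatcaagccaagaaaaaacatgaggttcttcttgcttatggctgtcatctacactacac

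AGATAA was found once in the Prss34 window, at position -31 from the start, and once in the Cpa3 window, at position -46. TATAAA was found in the Prss28 window at position -29 and in the Cpa3 window at position -31. The Mcpt8 window held neither set of letters. Of 32817 promoter windows in the same table, 18.6% held the GATA letters and 8.32% held TATAAA, so a match is common and is given as a description only.

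After the filter on cells, the E-cadherin+cKIT+ library held 6479 cells with a median of 13039 UMIs (unique molecular identifiers, each counting 1 captured RNA molecule) and the E-cadherin+cKIT- library 3662 cells with a median of 4416.5. With 1 library per sort no difference could be tested, and every interval below is a 95% interval of counting error only, which does not include the spread between mice or libraries. Levels are CPM, the UMIs of a gene per 1000000 UMIs of the cells summed. Since 1 captured molecule gives 1 UMI from its 3′ end whatever its length, CPM of different genes were set side by side without a correction for length. Kit stood at 37.1 CPM in the cKIT+ sort and 0.875 in the cKIT- sort, and Cdh1 at 62.8 and 193 CPM. The libraries shared 10 cell barcodes, and whether these are the same droplets was not tested.

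Over all cells of a sort, the proteases were among the most abundant messages. Mcpt8 stood at 11085 CPM (11063 to 11107) in E-cadherin+cKIT+ cells, where it was the most abundant gene of all, and at 26187 CPM (26121 to 26254) in E-cadherin+cKIT- cells, where it ranked 3. Prss34 stood at 11081 CPM in cKIT+ cells, with rank 2, and at 40691 CPM in the cKIT- sort, with rank 1. Cpa3 reached 1938 and 2708 CPM, and Prss28 only 22.0 and 69.7 CPM. Together the 4 genes made up 2.41% of all UMIs in the cKIT+ sort and 6.97% in the cKIT- sort.

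The cKIT- over cKIT+ ratio was 2.36 (2.35 to 2.37) for Mcpt8, 3.67 (3.66 to 3.68) for Prss34, 3.16 (2.96 to 3.38) for Prss28 and 1.40 (1.38 to 1.41) for Cpa3. Mcpt8 and Prss34 were thus at least 2-fold higher in the cKIT- sort, where 11.5% of the 3224 genes with at least 50 CPM in either sort were, and no member was at least 2-fold lower, where 6.14% were. Prss28 is left out of this count, here and below, because it reached 50 CPM only through the group where it was high. The ratio of CPM is not the ratio of molecules per cell, because cKIT+ cells held more UMIs. As UMIs per cell the ratios were 1.05, 1.63, 1.41 and 0.62 in the same order, so that Cpa3 was lower per cell in the cKIT- sort.

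The sorts held different mixtures of cells, so the comparison was repeated among cells with basophil markers. Cells were clustered without the 4 proteases, and 12 of 25 clusters had at least 8 of 14 basophil marker genes on (among them Fcer1a, Ms4a2, Cd200r3 and Gata2) and at most 1 marker of another lineage among their 10 leading genes. These clusters held 3903 E-cadherin+cKIT+ cells (60.2%) and 3251 E-cadherin+cKIT- cells (88.8%). They are called cells with basophil markers rather than basophils, because 8 of the 12 had no basophil marker among their leading genes. In most of these 8, cell-cycle genes led, while cluster 1 (763 cKIT+ and 18 cKIT- cells) had Sox4, a progenitor gene, among its leading genes. In cKIT+ cells with basophil markers the levels were 16467 CPM for Mcpt8, 16491 for Prss34, 32.0 for Prss28 and 2710 for Cpa3. In cKIT- cells they were 28223, 43862, 74.8 and 2918 CPM.

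Within this lineage Prss34 differed most between the sorts and Cpa3 least. The cKIT- over cKIT+ ratio was 2.66 (2.65 to 2.67) for Prss34, 2.34 (2.19 to 2.50) for Prss28, 1.71 (1.71 to 1.72) for Mcpt8 and 1.08 (1.07 to 1.09) for Cpa3. Prss34 was at least 2-fold higher, as were 10.2% of 3185 genes tested in these cells, and Prss28 reached 50 CPM only in the cKIT- sort. The sums are weighted to deep cells, and depth moved with the proteases, as described below. With every cell given the same weight the ratios were 1.82 for Prss34, 1.61 for Prss28, 1.21 for Mcpt8 and 0.809 for Cpa3, so that the direction of Cpa3 turned. Leaving out cluster 1 gave 2.47 for Prss34 and 1.64 for Mcpt8.

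**Figure D1:**
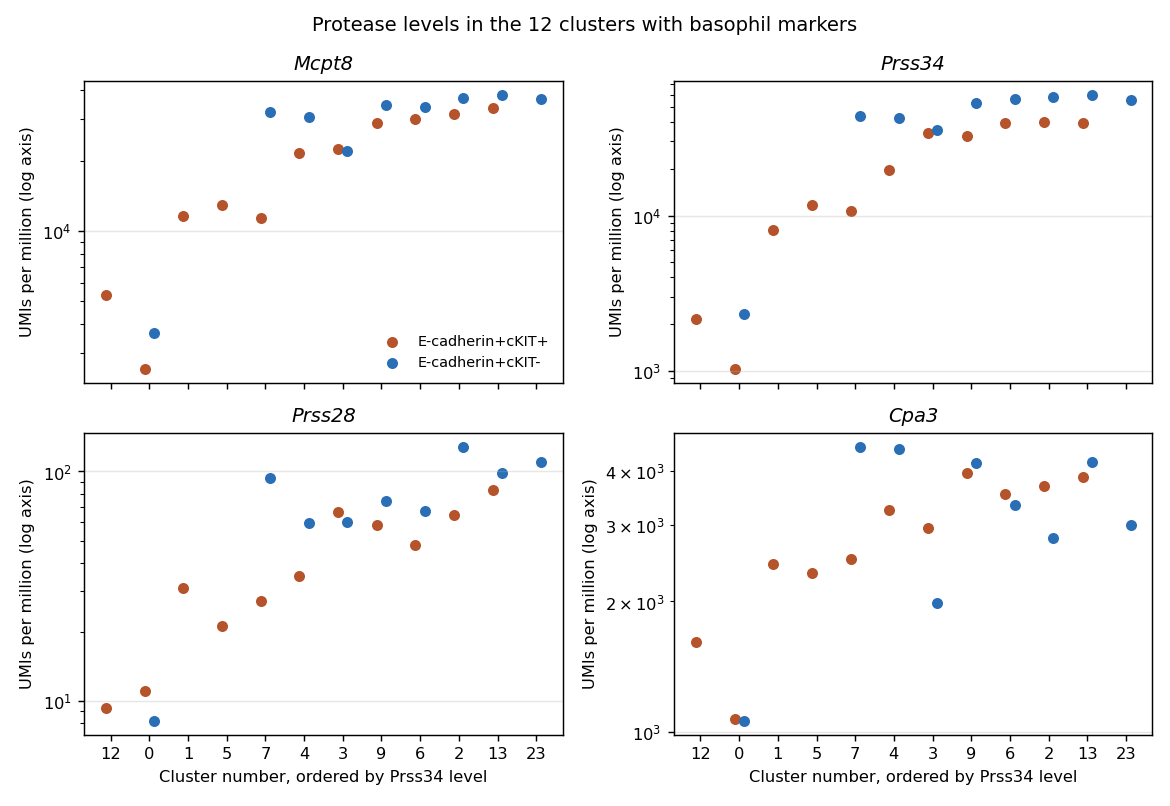
CPM (log axis) of each protease in the 12 clusters with basophil markers, ordered by the Prss34 level over both sorts, with a point for each sort that had at least 20 cells in the cluster. Mcpt8, Prss34 and Prss28 are lowest in clusters 12 and 0, Cpa3 spans a narrower range, and within most clusters the Prss34 point of the cKIT- sort lies above that of the cKIT+ sort.

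Between the 12 clusters Prss34 varied most and Cpa3 least. Prss34 ran from 2175 CPM in cluster 12 to 55870 CPM in cluster 23, a range of 25.7-fold. Mcpt8 ran from 3614 CPM in cluster 0 to 37185 CPM in cluster 13, or 10.3-fold. Prss28 ran over 13.2-fold, from 8.31 to 109 CPM. Cpa3 ran over 3.89-fold, from 1060 CPM in cluster 0 to 4126 CPM in cluster 13. The number of Prss34 UMIs per Mcpt8 UMI went from 0.409 in cluster 12 to 1.61 in cluster 3, so Mcpt8 was the leading protease in some clusters and Prss34 in others.

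Cluster 12 was made of 403 cKIT+ cells, 75.4% of them in S phase by the rule given below, with Mcpt8 at 5323 CPM and Prss34 at 2175 CPM. Clusters 5 and 7 were almost all called G2/M by the same rule and mostly cKIT+. Their cKIT+ cells held 12885 and 11380 CPM of Mcpt8 and 11725 and 10725 CPM of Prss34. Clusters 2, 6, 9 and 13 held cells of both sorts, with at least 28830 CPM of both proteases in each sort. Cluster 0 (71 cKIT+ and 1225 cKIT- cells) and cluster 3 (32 and 617 cells) were the largest cKIT- clusters with few G2/M cells, and they lay far apart. In cKIT- cells, cluster 0 held 3667 CPM of Mcpt8 and 2327 CPM of Prss34, against 21993 and 35462 CPM in cluster 3. Cdh1 was at 356 CPM in the cKIT- cells of cluster 0 and 264 CPM in those of cluster 3, and Kit had 0 UMIs in both.

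Of the clusters, 5 (0, 2, 6, 9 and 13) held at least 50 cells of each sort, which allowed the sorts to be compared within a cluster. The cKIT- over cKIT+ ratio of Prss34 was above 1 in 5 of 5, at 1.43 to 1.63 in clusters 2, 6, 9 and 13 and at 2.26 in cluster 0. The cKIT+ cells of cluster 0 held only 1029 CPM of Prss34, near the 1117 CPM of cKIT+ B cell-like cells, which should lack it. The part of free RNA in the cluster 0 ratio was not tested. The ratio of Mcpt8 was also above 1 in 5 of 5 but nearer to it, at 1.12 to 1.43. Cpa3 did not share this direction, with 0.76 in cluster 2, 0.943 in cluster 6, 0.988 in cluster 0, 1.05 in cluster 9 and 1.09 in cluster 13. Prss28 was 1.98 (1.71 to 2.30) in cluster 2 and 1.19 (0.898 to 1.59) in cluster 13. In cells of the same cluster, then, Prss34 differed between the sorts more than Mcpt8 in each of these 5 clusters. Prss34 UMIs per Mcpt8 UMI in cluster 9 were 1.12 in cKIT+ cells and 1.52 in cKIT- cells, and in cluster 6 they were 1.31 and 1.67. Clusters 3, 4 and 7 missed the limit of 50 but held at least 20 cells of each sort. In cluster 3 (32 cKIT+ cells) Mcpt8 was at 22475 CPM in cKIT+ and 21993 in cKIT- cells, and Prss34 at 34084.5 and 35462. In cluster 4 (29 cKIT- cells) Mcpt8 was at 21479 and 30595 CPM, and Prss34 at 19554 and 42250. In cluster 7 (48 cKIT- cells) Mcpt8 was at 11380 and 32168.5 CPM, and Prss34 at 10725 and 44089.

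Droplet libraries carry free RNA, so the proteases were also read in cells that should lack them. In B cell-like clusters Mcpt8 stood at 779 CPM in the cKIT+ sort (68 cells) and 520 CPM in the cKIT- sort (229 cells), where Prss34 stood at 1117 and 1220 CPM. After each cell was thinned to 2000 UMIs, 31.1% of cKIT- B cell-like cells held a Prss34 UMI (24.99 to 37.6, median depth 2681 UMIs), with a mean of 0.918 UMIs per cell. Among cKIT- cells with basophil markers 81.1% did (79.6 to 82.4, median depth 4675 UMIs), with a mean of 64.2. In the cKIT+ sort a Prss34 UMI was found in 46.2% of 65 erythroid-like and 23.8% of 63 B cell-like cells, with means of 1.85 and 1.03. Among cKIT+ cells with basophil markers 80.5% held a Prss34 UMI, with a mean of 33.9. Other classes of cells spread wider. Monocyte-like cKIT+ cells held 319 CPM of Mcpt8 and 227 of Prss34, and neutrophil-like cKIT+ cells 2310 and 2370. The 36 dendritic-like cKIT- cells held 5596 and 8630 CPM, above the lowest clusters with basophil markers, 0 and 12. The 22 eosinophil-like cKIT- cells held still more, 23513 and 27713 CPM, and the 745 eosinophil-like cKIT+ cells held 1942 and 1745 CPM. Those 22 cells lay in cluster 11, which had 10 basophil markers on but eosinophil genes among its leading genes. The parts of free RNA and of doublets in these values were not tested. Prss28 was found in 0 of 219 cKIT- B cell-like cells, which allows a share of up to 1.37%, and in 10.7% of cKIT- cells with basophil markers. Cpa3 was found in 3.65% of those B cell-like cells and in 90.4% of the cells with basophil markers. In the 439 cells of cluster 10, a Kit-carrying cKIT+ cluster left unnamed, Cpa3 stood at 1665 CPM, above Mcpt8 at 1113 and Prss34 at 717 CPM. Gzmb and Cma1, both on the list of mast cell markers, were among the leading genes of this cluster.

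Single cells with basophil markers most often carried Mcpt8, Prss34 and Cpa3 together. At 2000 UMIs per cell, Mcpt8 was found in 92.1% of cells in the cKIT+ sort (91.2 to 92.9) and in 96.7% in the cKIT- sort (96.0 to 97.3). Cpa3 was found in 94.8% and 90.4%, Prss34 in 80.5% and 81.1%, and Prss28 in 6.53% and 10.7%. Mcpt8, Prss34 and Cpa3 without Prss28 were the most common pattern, in 70.5% of cKIT+ and 63.9% of cKIT- cells. Mcpt8 and Cpa3 without either tryptase-type gene followed, with 12.2% and 13.8%, and all 4 together made up 6.17% and 10.0%. No UMI of any of the 4 was found in 56 of 3889 cKIT+ cells and 12 of 3109 cKIT- cells.

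Prss28 was found almost only where Prss34 was. Of the cells with a Prss28 UMI, 4 cKIT+ cells and 1 cKIT- cell lacked a Prss34 UMI. Both genes were found in 6.43% of cKIT+ cells, against 5.25% if they were independent, and in 10.6% of cKIT- cells against 8.66%. The difference in level was large, since Prss28 UMIs were 0.12% to 0.427% of Prss34 UMIs across the 12 clusters. At these depths a cell without a Prss28 UMI cannot be read as a cell without the message.

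Mcpt8 and Prss34 were found together in 78.5% of cells in the cKIT+ sort (77.2 to 79.8) and in 79.8% in the cKIT- sort (78.4 to 81.2). Independence would give 74.1% and 78.4%. Both were also found in 11.1% of 63 cKIT+ and 8.68% of 219 cKIT- B cell-like cells, and the part of free RNA was not tested. Across cells with basophil markers the levels of Mcpt8 and Prss34 moved together. The Pearson correlation of log2(1 + UMIs) was 0.81 over 3889 cKIT+ cells and 0.91 over 3109 cKIT- cells, and the Spearman correlation 0.82 and 0.86. The cells of a sort share 1 library, so these are descriptions of it. Mcpt8 and Cpa3 correlated less, at 0.55 and 0.50, and so did Prss34 and Cpa3, at 0.51 and 0.50. The cells were also split by cell-cycle state, by the rule given below. The Spearman correlation of Mcpt8 and Prss34 was 0.79 in low-cycle, 0.81 in S and 0.81 in G2/M cKIT+ cells. In cKIT- cells it was 0.78, 0.76 and 0.43, where the Pearson values were 0.83, 0.92 and 0.79. The correlation over all cells of the cKIT- sort thus did not hold at the same strength within its G2/M cells.

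The pair was not symmetric. In cKIT+ cells, 222 cells (5.71%) held at least 20 Mcpt8 UMIs of 2000 with fewer than 5 of Prss34, and 3 cells (0.0771%) held the reverse. In cKIT- cells the numbers were 15 cells (0.482%) and 1 cell. These limits were chosen after the values were seen. Cells with at least 20 UMIs of both made up 49.8% of cKIT+ and 58.6% of cKIT- cells, and cells with fewer than 5 of both made up 17.7% and 18.1%.

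**Figure D2:**
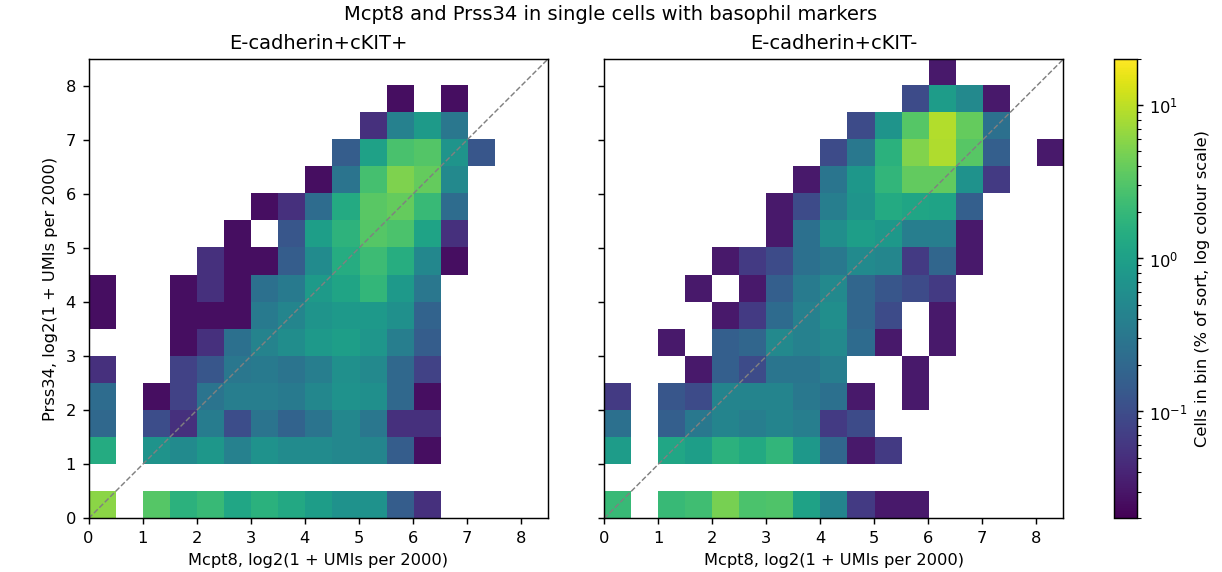
Cells with basophil markers by their Mcpt8 (x axis) and Prss34 (y axis) level at 2000 UMIs per cell, as log2(1 + UMIs) in bins of 0.5, coloured by the share of the sort's cells on a log scale. The dashed line marks equal numbers of both, and the empty stripes between 0 and 1 are values that whole UMIs cannot take. Cells with Mcpt8 and little Prss34 fill the lower right in the cKIT+ sort, while the cKIT- sort gathers at the upper end and at low levels of both.

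Prss34 levels were spread differently in the sorts. In cKIT- cells, 18.9% held no Prss34 UMI of 2000 and 13.9% held 1 to 4, only 3.09% held 5 to 9 and 2.89% held 10 to 19, and 38.3% held 80 to 159. In cKIT+ cells the shares were 19.5%, 12.96%, 6.43%, 9.49% and 13.4%, with the largest share (23.0%) at 40 to 79. Middle levels were therefore rarer in the cKIT- sort. At the low end, 31.1% of the cKIT- B cell-like cells also held a Prss34 UMI, as given above, and the part of free RNA in these bins was not tested. Among cells with at least 20 UMIs of Mcpt8 and Prss34 together, Prss34 held a median of 49.5% of the sum in 2780 cKIT+ cells and 61.1% in 2048 cKIT- cells, and it was the larger of the pair in 47.6% and 82.7%.

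**Figure D3:**
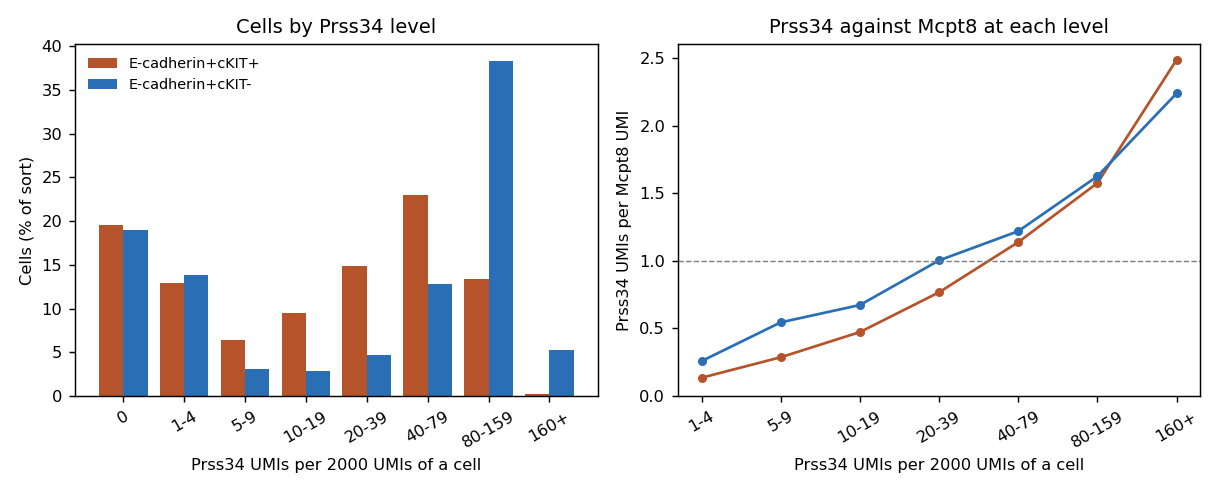
Left, the share of each sort's cells with basophil markers (bars) by Prss34 UMIs per 2000 UMIs of a cell. Right, Prss34 UMIs per Mcpt8 UMI in the cells of each bin, with a dashed line at equality. The cKIT- sort has few cells at 5 to 19 UMIs and its largest share at 80 to 159, and the ratio is above 1 from 40 UMIs upward in both sorts in bins that were made on Prss34 itself.

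The cells were also binned on Mcpt8. Prss34 UMIs per Mcpt8 UMI were 0.321 in cKIT- cells with 1 to 4 Mcpt8 UMIs, 0.315 with 5 to 9, 0.907 with 10 to 19 and 1.80 with 20 to 39, then 1.73 and 1.34 with 40 to 79 and 80 to 159. In cKIT+ cells the same bins gave 0.431, 0.488, 0.677, 0.946, 1.08 and 0.932. At 20 to 39 Mcpt8 UMIs, cells of the cKIT- sort held a mean of 52.0 Prss34 UMIs and those of the cKIT+ sort 28.1.

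Depth of a cell moved with the proteases in the cKIT- sort. cKIT- cells of 2000 to 4999 UMIs held a mean of 16.7 Mcpt8 and 20.3 Prss34 UMIs of 2000, and 35.0% of them were low-cycle by the rule below. Those of 5000 to 9999 UMIs held 64.8 and 105, and those of 10000 to 19999 held 71.5 and 112, with 10.4% and 1.95% low-cycle. Cathepsin G message (Ctsg) followed, at 0.839, 5.97 and 9.74 UMIs of 2000. In cKIT+ cells Mcpt8 was 19.98 below 5000 UMIs, 36.3 at 10000 to 19999 and 27.0 at 20000 or more. RNA content, capture and cell state cannot be told apart here.

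Cell-cycle state was called at 2000 UMIs per cell from fixed gene lists. Cells with at least 4 UMIs of 47 G2/M genes were called G2/M, others with at least 4 UMIs of 40 S-phase genes were called S, and cells with at most 1 UMI of each list were called low-cycle. The G2/M list was read first, so a cell with at least 4 UMIs of both lists was called G2/M. Clusters 5 and 6, almost all G2/M by this rule, had Tk1 (cluster 5) and Rrm2 (cluster 6) of the S list among their leading genes. How many cells called G2/M were in S phase was not tested. In the cKIT+ sort 2018 of 3889 cells with basophil markers (51.9%) were G2/M and 233 (5.99%) low-cycle. In the cKIT- sort 927 of 3109 (29.8%) were G2/M and 645 (20.7%) low-cycle. The number of cells near the G2/M limit, with 3 or 4 such UMIs, was 406 and 210. The S call is less sharp, since the S list also includes genes with UMIs in resting cells, so G2/M against low-cycle is the comparison given first.

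In E-cadherin+cKIT- cells all 4 proteases stood higher in G2/M than in low-cycle cells. Mcpt8 was at 13214 CPM in low-cycle and 35011 in G2/M cells (ratio 2.65, 2.62 to 2.68), and Prss34 at 18878 and 55808 CPM (2.96, 2.93 to 2.98). Prss28 was at 39.0 and 98.2 CPM (2.52, 2.04 to 3.14), and Cpa3 at 1636 and 3243 CPM (1.98, 1.92 to 2.05). Mcpt8 and Prss34 were at least 2-fold higher, as were 14.4% of 3337 genes, and no member was at least 2-fold lower, as 10% were. Prss28 reached 50 CPM only in the G2/M cells. Mcpt8 and Prss34 were found together in 98.0% of G2/M cells and 64.2% of low-cycle cells.

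In E-cadherin+cKIT+ cells the differences were smaller. Mcpt8 was at 13043 CPM in low-cycle and 17563 in G2/M cells (1.35, 1.33 to 1.36), and Prss34 at 10577 and 18720 CPM (1.77, 1.75 to 1.79). Prss28 was at 37.1 and 32.2 CPM (0.869, 0.694 to 1.10), and Cpa3 at 2455 and 2765 CPM (1.13, 1.10 to 1.16). Of the 3 members with at least 50 CPM, none was at least 2-fold higher, where 7.68% of 2968 genes were, or at least 2-fold lower, where 0.64% were. Mcpt8 and Prss34 were found together in 82.9% of G2/M cells and 70.0% of low-cycle cells. These ratios rest on cluster 1, which held 176 of the 233 low-cycle cKIT+ cells (75.5%). Without it they were 1.002 (0.978 to 1.03) for Mcpt8, 0.859 for Prss34, 0.623 for Prss28 and 1.03 for Cpa3. Within cluster 1 the direction was the reverse. Its low-cycle cKIT+ cells held 12064 CPM of Mcpt8, 8152 of Prss34 and 2402 of Cpa3. The 27 G2/M cells there held 7332, 6185 and 2280 CPM.

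The clusters behind the states also differed in the cKIT- sort. Low-cycle cKIT- cells came from cluster 0 (412 cells, 63.9%) and cluster 3 (211 cells, 32.7%), whereas G2/M cells came mainly from clusters 2 (42.0%) and 6 (31.9%). Low-cycle cells of cluster 0 held 4071 CPM of Mcpt8 and 2801 of Prss34, and low-cycle cells of cluster 3 held 21260 and 33923 CPM. Within cluster 3, S cells stood higher, at 24816 and 41262 CPM, and within cluster 0 they stood lower, at 3105 and 1355 CPM. The 26 G2/M cells of cluster 0 stood above its low-cycle cells, at 5215 and 4068 CPM. Low-cycle cells were thus not uniformly low in these proteases. The cKIT- ratios of G2/M over low-cycle cells depend on the share of cluster 0 among the low-cycle cells, and were not computed without it.

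For Mcpt8 and Prss34, S-phase cells lay between the others in the cKIT+ sort and near G2/M in the cKIT- sort. Mcpt8 in S was at 15226 CPM in the cKIT+ and 32558 CPM in the cKIT- sort, and Prss34 at 13635 and 49862 CPM. Cpa3 was highest in S among the cKIT- states, at 3728 CPM.

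**Figure D4:**
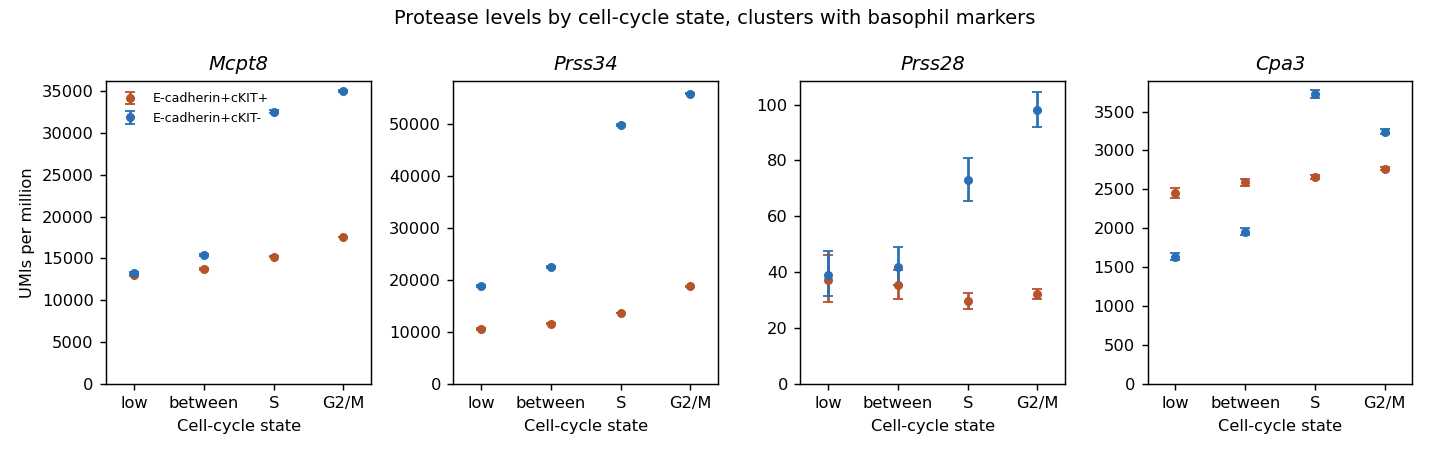
CPM of each protease in cells with basophil markers by cell-cycle state (low, between, S, G2/M), for each sort, with 95% Poisson intervals that cover counting error only and are smaller than the point for the abundant genes. Mcpt8 is at about the same level in low-cycle cells of both sorts, Prss34 is higher in the cKIT- sort in every state, and Cpa3 is lower there in low-cycle cells and higher in S and G2/M cells.

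Within a state, the sorts differed in a different way for each protease. In low-cycle cells the cKIT- over cKIT+ ratio was 1.01 (0.997 to 1.03) for Mcpt8, 1.78 (1.76 to 1.81) for Prss34, 1.05 (0.775 to 1.43) for Prss28 and 0.667 (0.64 to 0.695) for Cpa3. In G2/M cells it was 1.99, 2.98, 3.05 and 1.17, and in S cells 2.14, 3.66, 2.46 and 1.40. By these sums Prss34 was higher in the cKIT- sort in all 4 states. In low-cycle cells its mean at 2000 UMIs per cell was 21.3 in cKIT+ and 25.8 in cKIT- cells. The medians went the other way, at 6 and 2 UMIs, as did the shares with a Prss34 UMI, 73.0% and 66.5%. In cells between the limits the Prss34 medians were 8 and 2, while in S and G2/M cells the cKIT- median was higher. For Mcpt8 in low-cycle cells the means were 25.7 and 19.6 and the medians 24 and 8. Low-cycle cells of the sorts come from different clusters, as given above, so this is a comparison of the cells a state holds and not of 1 cell type.

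In both sorts the gene most like each protease across cells was another member or Ctsg, with other genes further down. For Mcpt8 in cKIT- cells the highest Pearson correlations were with Prss34 (0.91) and Ctsg (0.75), then Stmn1 (0.55), H2afz (0.55) and Ms4a3 (0.55), over 1451 genes with at least 100 CPM, whose median was -0.0081. In cKIT+ cells Prss34 (0.81) was followed by Tmsb4x (0.65), Ctsg (0.56), Cpa3 (0.55) and Anxa1 (0.5). Prss34 in the cKIT- sort was followed by Mcpt8, Ctsg (0.75), Ms4a3 (0.58), Ptma (0.58) and H2afz (0.57), and in the cKIT+ sort by Mcpt8, Tmsb4x (0.61), Cpa3 (0.51), Fcer1a (0.47), the IgE receptor alpha chain, and Ctsg (0.46). Cpa3 in cKIT- cells was most like Ctsg (0.59), then Mcpt8 and Prss34 (0.5 each), Mpo (0.5) and Calr (0.48), and in cKIT+ cells most like Mcpt8, Prss34 and Ctsg (0.47), then Tmsb4x (0.33) and Cd63 (0.32). For Prss28 the highest were Prss34 and Mcpt8 in both sorts, at 0.24 and 0.22 in cKIT- and 0.16 and 0.13 in cKIT+ cells, which are weak values in sparse counts.

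Little of the other chymase and granzyme genes was read in cells with basophil markers. Of 15 measured, most of them genes of the chymase locus, only Ctsg reached 50 CPM, at 3900 CPM in the cKIT+ and 3270 CPM in the cKIT- sort (ratio 0.838). In cKIT- cells Ctsg was 4.22-fold higher in G2/M than in low-cycle cells, and 1.24-fold higher in cKIT+ cells. Mcpt4, the mast cell chymase gene on the other side of Mcpt8, had 1 UMI in the cKIT+ sort. Of 13 other measured tryptase-type and Prss genes, not all of them in the tryptase locus, none reached 50 CPM. Prss29, next to Prss28, had 13 and 14 UMIs, and Tpsab1, a mast cell tryptase gene, had 1 and 3, against 1887 and 1578 UMIs of Prss28. Of 12 other carboxypeptidase genes only the lysosomal Ctsa reached 50 CPM, and Cpb1, next to Cpa3, had 17 and 15 UMIs.

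The neutrophil-type granule list held 3 proteases (Elane, Prtn3 and Ctsg) and Mpo, a peroxidase. Mpo was at least 2-fold lower in the cKIT- sort, at 3057 and 1062 CPM in the cKIT+ and cKIT- sort, where 5.27% of 3185 genes were. Elane, neutrophil elastase, stood at 50.2 and 3.93 CPM, and Prtn3, proteinase 3, at 159 and 10.1 CPM, so that both reached 50 CPM only in the cKIT+ sort. That library also held 519 granulocyte/monocyte progenitor-like cells with 12334 CPM of Elane and 7340 CPM of Prtn3, which the cKIT- library lacked. In its 68 B cell-like cells Elane stood at 18.7 CPM (8.05 to 36.8), Prtn3 at 25.6 CPM (12.8 to 45.9) and Mpo at 62.9 CPM (41.5 to 91.6), and the part of free RNA in the Elane and Prtn3 values was not tested.

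Of 23 measured genes of granule storage and release, 15 reached 50 CPM, with a median cKIT- over cKIT+ ratio of 1.31, against 1.03 over all genes tested. List medians, here and below, are descriptions only, since the lists were chosen with earlier results known. They also include genes that reached 50 CPM only in the cKIT- sort. Those past 2-fold higher in the cKIT- sort reached 50 CPM only there. As for Prss28, they are therefore not counted against the 10.2% of all genes tested. Srgn was at 3007 and 2954 CPM (0.982) and the granule membrane gene Cd63 at 2353 and 2927 CPM (1.24). Hdc, which makes histamine, was at 283 and 548 CPM (1.93). The 4 past 2-fold reached 50 CPM only in the cKIT- sort, and were Chst15 (2.30), a sulfotransferase gene, Rab27a (3.03) and Lyst (4.08), which act in granule docking and granule size, and Snap23 (2.11), a membrane fusion gene. In cKIT- cells Chst15 and Lyst were lower in G2/M than in low-cycle cells, at 0.427 and 0.269 times, opposite in direction to the 4 proteases. Of 3337 genes tested between these states, 10% were at least 2-fold lower. Lyst reached 50 CPM only in the low-cycle cells.

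Of 21 measured genes that process or inhibit proteases, 9 reached 50 CPM and 2 were at least 2-fold higher in the cKIT- sort, as were 10.2% of all genes tested. These were the cathepsins Ctsd (2.44) and Ctse (2.20). Ctsc stood at 60.1 CPM in the cKIT+ and 79.9 CPM in the cKIT- sort (1.33), and Serpinb1a, an inhibitor of neutrophil-type serine proteases, at 332 and 568 CPM (1.71). The list median was 1.33, against 1.03 over all genes. Both Ctsd and Ctse were lower in G2/M than in low-cycle cKIT- cells, at 0.442 and 0.397 times, where 10% of 3337 genes were at least 2-fold lower.

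Of 27 regulators of the lineage, 16 reached 50 CPM and 2 were at least 2-fold lower in the cKIT- sort (5.27% of all genes tested were), with a median ratio of 1.69, against 1.03 over all genes. Gata2, a transcription factor needed for basophils and mast cells, was at 667 and 1217 CPM (1.82). The factors Cebpa (2.35) and Cebpb (2.37) and the cytokine receptor chain Csf2rb2 (2.16) were at least 2-fold higher, where 10.2% of all genes tested were. Nfil3 (5.57) reached 50 CPM only in the cKIT- sort and is left out of this count. The progenitor factor Myb (0.299) and Lmo4 (0.378) were lower. Between G2/M and low-cycle cKIT- cells the regulators went both ways. Cbfb (2.34) was at least 2-fold higher in G2/M, where 14.4% of all genes tested were, and Csf2rb (0.466) at least 2-fold lower, where 10% were. Myb (2.09) reached 50 CPM only in the G2/M cells and Nfil3 (0.362) only in the low-cycle cells, so they are left out of this comparison. The ratio was 0.69 for Gata2, 0.611 for Cebpa, 1.18 for Cebpb and 1.18 for Runx1.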

How the data were processed

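The E-cadherin+cKIT+ and the E-cadherin+cKIT- sort of bone marrow gave 1 droplet library each. The authors deposited raw counts of UMIs for every gene in every cell, and the submitters' processing notes name Cell Ranger 3.0.2 and mm10, while the annotation release is not given in the sources used here. The labels and the methods name different kit versions. The counts were used as deposited. The cell filter described in the methods (genes in at least 40 cells, and no cell in the top or bottom 1% by genes or in the top 1% by UMIs) left 10141 cells. Of 31053 gene identifiers, 30934 were found in GENCODE M21 (GRCm38), which gave gene coordinates.

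CPM is UMIs per 1000000 UMIs of the summed cells. Sums carry exact Poisson intervals, and shares and ratios carry exact binomial (Clopper-Pearson) ones, at 95%. The limit allowed by a count of 0 is 3 counts of the total. Cells were thinned to 2000 UMIs for shares, joint levels and cycle states, which left out 345 and 176 cells. Clustering used Seurat 5.3.0 and R 4.3.3 (2000 variable genes less the 4 members, 15 principal components, resolution 1). A marker was on at 20 CPM and 10% of its highest cluster. The rule that joined 12 clusters was set after the clusters were seen. Scrublet in Scanpy 1.11.5 called 264 kept cKIT+ and 3 kept cKIT- cells, which were not removed. As an alternative, the highest-scoring 320 and 105 kept cells were removed. edgeR 4.0.16 was used for TMM scaling alone.

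The genes and lists were chosen with earlier results of these data known. Genes named are the members, list genes with at least 50 CPM in either sort, sort genes, markers, locus neighbours and, for each member and sort, the 5 genes with the highest correlation. Alternatives changed the filter, scaling, clusters, depth, limits and doublets. No test was made between the libraries.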

Additional observations from a re-analysis of the deposited data

Results flagged for a closer look

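In 16 comparisons of a member's direction between states, clusters or sorts, Cpa3 was the only one whose ratios lay on opposite sides of 1 with both counting intervals clear of it. By cell-cycle state its cKIT- over cKIT+ ratio was 0.667 in low-cycle cells and 1.40 in S cells. By cluster it was 0.76 in cluster 2 and 1.09 in cluster 13. These differences were not tested, since each sort is 1 library.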

How the results depend on the processing

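Each value below lay outside the counting interval of the value given above. For Mcpt8 and Prss34 this interval is narrow, so small moves are listed beside large ones. No paired analysis was possible because there was 1 library per sort and no result comes from a test.

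Over all kept cells, the cKIT- over cKIT+ ratio was 2.42 for Mcpt8, 3.76 for Prss34 and 1.44 for Cpa3 with all deposited cells. It was 2.31 for Mcpt8, 3.58 for Prss34 and 1.36 for Cpa3 with TMM scaling. It was 2.54 for Mcpt8, 3.95 for Prss34, 3.4 for Prss28 and 1.5 for Cpa3 with totals taken without the 10 most abundant genes. It was 1.71 for Mcpt8, 2.57 for Prss34, 2.17 for Prss28 and 1.04 for Cpa3 with equal weight per cell. It was 1.05 for Mcpt8, 1.63 for Prss34, 1.41 for Prss28 and 0.62 for Cpa3 as UMIs per cell. It was 2.34 for Mcpt8 and 3.63 for Prss34 without the highest doublet scores. In cells with basophil markers this ratio was 1.72 for Mcpt8 and 2.68 for Prss34 at resolution 0.5. It was 1.72 for Mcpt8 and 2.68 for Prss34 at resolution 2. It was 1.62 for Mcpt8, 2.46 for Prss34, 2.18 for Prss28 and 1.03 for Cpa3 with cells chosen by their own marker UMIs. It was 1.7 for Mcpt8 and 2.63 for Prss34 without the highest doublet scores. It was 1.21 for Mcpt8, 1.82 for Prss34, 1.61 for Prss28 and 0.809 for Cpa3 with equal weight per cell. It was 1.64 for Mcpt8, 2.47 for Prss34 and 1.06 for Cpa3 without cluster 1, an alternative chosen after seeing the data.

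In cKIT+ cells the G2/M over low-cycle ratio was 1.33 for Mcpt8 and 1.73 for Prss34 with a limit of 3 list UMIs. It was 1.37 for Mcpt8 and 1.84 for Prss34 with a limit of 6. It was 1.33 for Mcpt8 with Scanpy phase calls. It was 1.23 for Mcpt8, 1.62 for Prss34 and 1.04 for Cpa3 at 1000 UMIs per cell with a limit of 2. It was 1.8 for Prss34 without the highest doublet scores. It was 1.45 for Mcpt8, 1.91 for Prss34, 1.2 for Prss28 and 1.19 for Cpa3 with levels from thinned UMIs. It was 1.002 for Mcpt8, 0.859 for Prss34, 0.623 for Prss28 and 1.03 for Cpa3 without cluster 1. In cKIT- cells the G2/M over low-cycle ratio was 2.61 for Mcpt8 and 2.89 for Prss34 with a limit of 3 list UMIs. It was 2.999 for Prss34 and 1.9 for Cpa3 with a limit of 6. It was 2.07 for Mcpt8, 2.28 for Prss34 and 1.37 for Cpa3 with Scanpy phase calls. It was 2.61 for Mcpt8 and 1.89 for Cpa3 at 1000 UMIs per cell with a limit of 2. It was 2.7 for Mcpt8 and 3.01 for Prss34 without the highest doublet scores. It was 3.45 for Mcpt8, 4.15 for Prss34, 3.8 for Prss28 and 2.21 for Cpa3 with levels from thinned UMIs. It was 2.7 for Mcpt8 and 2.06 for Cpa3 without cluster 1. That cluster held only 6 of the 645 low-cycle cKIT- cells, so leaving it out could change little in this sort.

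Shares of cKIT+ cells were 88.1% for Mcpt8, 75.99% for Prss34, 3.31% for Prss28, 85.4% for Cpa3 and 74.5% for Mcpt8 and Prss34 together at 1000 UMIs per cell. They were 95.5% for Mcpt8, 87.3% for Prss34, 14.1% for Prss28, 98.4% for Cpa3 and 85.6% for Mcpt8 and Prss34 together at 5000 UMIs, where only deeper cells enter. They were 98.3% for Mcpt8, 94.2% for Prss34, 32.3% for Prss28, 99.2% for Cpa3 and 93.2% for Mcpt8 and Prss34 together without thinning. They were 85.5% for Mcpt8, 71.2% for Prss34, 0.0257% for Prss28, 75.03% for Cpa3 and 70.6% for Mcpt8 and Prss34 together for at least 3 UMIs. They were 80.8% for Mcpt8 and Prss34 together without cluster 1. Shares of cKIT- cells were 92.2% for Mcpt8, 74.4% for Prss34, 5.33% for Prss28, 75.6% for Cpa3 and 72.3% for Mcpt8 and Prss34 together at 1000 UMIs per cell. They were 100% for Mcpt8, 99.9% for Prss34, 33.4% for Prss28, 99.7% for Cpa3 and 99.9% for Mcpt8 and Prss34 together at 5000 UMIs, where only deeper cells enter. They were 83.2% for Prss34, 28.7% for Prss28, 93.8% for Cpa3 and 81.9% for Mcpt8 and Prss34 together without thinning. They were 89.2% for Mcpt8, 69.4% for Prss34, 0.161% for Prss28, 61.1% for Cpa3 and 69.1% for Mcpt8 and Prss34 together for at least 3 UMIs.

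Genes past 2-fold in either direction numbered 569 in all kept cells, 492 in cells with basophil markers, 247 in cKIT+ G2/M against low-cycle cells, 815 in cKIT- G2/M against low-cycle cells. In the same order there were 4175, 3358, 2309, 3111 with at least 10 UMIs over both sums. There were 173, 153, 60, 242 with at least 200 CPM. There were 110, 89, 113, 251 past 4-fold. Among the 176 alternative values, 3 turned a direction whose counting interval had been clear of 1 (Cpa3 as UMIs per cell over all cells, Cpa3 with equal weight per cell among cells with basophil markers, and Prss34 in cKIT+ G2/M against low-cycle cells without cluster 1), and the cause was not tested. Prss28 in cKIT+ G2/M against low-cycle cells had an interval that included 1 and lay on either side of it. Mcpt8 in the same cells had no direction left without cluster 1, at 1.002 (0.978 to 1.03). The other ratios of Mcpt8 and Prss34 kept their direction. Depth limits Prss28, with 1887 and 1578 UMIs in cells with basophil markers, most.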
